A study of Mus musculus with 8 samples.

Results

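The genes described here are 31 that act in the making of cholesterol and unsaturated fatty acids or in the control of that pathway by the sterol regulatory element binding proteins (SREBPs). They were named as a list of symbols, drawn up with earlier results of these data known, and all 31 were found among the 24421 gene rows of the tables and passed the filter on low counts that left 15438 genes to test. The values come from RNA bound to tagged ribosomes (translating ribosome affinity purification, TRAP) in cells of the Otp lineage, from dissected hypothalamus and medial amygdala of C57BL/6 mice, and the question the groups address is how loss of the repressor Capicua changes gene expression there. The 4 libraries called KO came from animals with Otp-Cre, ROSAfsTRAP and Cicflox/flox, and the 4 called Control from animals with Otp-Cre and ROSAfsTRAP, with no floxed Cic named, so the Cre and the tagging allele are common to both groups. Otp-Cre acts in every cell whose ancestry expressed Otp, so the tag and the Cic deletion mark a lineage of several neuron types and not a single type. Neither ages nor sexes nor the number of animals behind each library appear in the labels used here, and no input RNA was analysed here.

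Cholesterol is built from acetyl-CoA through mevalonate, isoprenoid diphosphates, squalene and lanosterol, and long-chain fatty acids are built by fatty acid synthase and then desaturated. SREBPs are membrane-bound transcription factors that SCAP escorts out of the endoplasmic reticulum when sterols are low and that the INSIG proteins hold back when sterols are high, so that many of the enzymes tend to be transcribed together. The brain makes its own cholesterol because plasma lipoproteins do not cross the blood-brain barrier, and myelinating oligodendrocytes and astrocytes are large producers beside neurons.

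The libraries held 33223878 to 49587839 gene counts in KO and 38171319 to 57300362 in Control, and every one of the 31 genes had at least 166 counts in every library. Cic was lower in all 4 KO libraries, at 34.5 to 59.2 CPM against 72.3 to 103 CPM in Control (log2 fold change -1.10 with SE 0.21, adjusted p = 0.00220 in edgeR). The exact permutation p was 0.0286, which is the floor for groups of 4. Of 7 genes known as Capicua targets in other systems 5 rose, among them Etv4 (log2 fold change 2.24), Etv5 (1.29) and Spry4 (1.39), with edgeR adjusted p of 0.00169, 7.38e-05 and 6.42e-05, whereas Dusp6 (0.07) and Etv1 (-0.07) did not pass. Neuronal markers were present, with 10 genes summing to 13100 to 17340 CPM. Most of that sum was Snap25 alone (11520 ± 1948 CPM in KO and 10600 ± 991 in Control), so sums of different lists do not compare cell types. Otp itself measured 2.69 to 8.55 CPM in KO and 2.28 to 5.01 in Control. Glial RNA was present in every library. Summed over 14 oligodendrocyte markers it was 1720 to 3132 CPM in KO and 2676 to 3403 in Control, and over 10 astrocyte markers 1273 to 1732 and 1317 to 1739 CPM. Spike-in RNA was 0.0569% to 0.0739% of gene counts in KO replicates 1, 2 and 4, below KO replicate 3 (0.395%) and all Control libraries (0.299% to 0.522%). Alignments counted as not unique were 69.2% to 81.9% in KO and 63.4% to 74.2% in Control. In RNA from mixed cells, fewer cells of a type and less RNA per cell cannot be told apart.

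No gene of cholesterol or fatty acid synthesis passed the test across all genes, in either direction. Log2 fold changes of KO over Control (log2FC below) ran from -0.31 for Mvk to 0.73 for Stard4. Their median was 0.07, against 0.02 over all 15438 genes tested, and 19 were positive and 12 negative, where 53.8% of all tested genes were positive. Across all genes 0.259% were called at an adjusted p of 0.05, which for 31 genes is less than 1 gene. At an unadjusted p of 0.05, 4 of the 31 were higher in KO (Stard4, Sqle, Fdft1 and Srebf1), where 6.06% of all tested genes were, and 1 was lower (Insig2), where 4.53% were. In Stard4, Sqle, Fdft1 and Idi1 every KO library lay above every Control library, 4 of 31 genes against 3.01% of all tested genes, and 0 of 31 had every KO library below, against 2.91%. That KO replicate 3, whose spike-in share was at the Control level, is among them follows from how these 4 genes were picked. The part of the spike-in difference in the results was not tested.

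Differences of this size are hard to detect with 4 libraries a group. On simulated counts with the same genes, depths and spreads, the edgeR test recovered 0 of 50 genes changed 1.2-fold, 22 of 50 changed 1.5-fold and 39 of 50 changed 2-fold. The 31 genes differed by at most 1.66-fold (Stard4), and all others by less than 1.5-fold. The changed genes were drawn from genes of all levels above a low cutoff, so the share recovered may differ for the 31 genes. In these simulated counts most changes of 1.5-fold or less were not recovered. The lack of a call therefore does not show that a gene was the same in both groups.

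**Figure D1:**
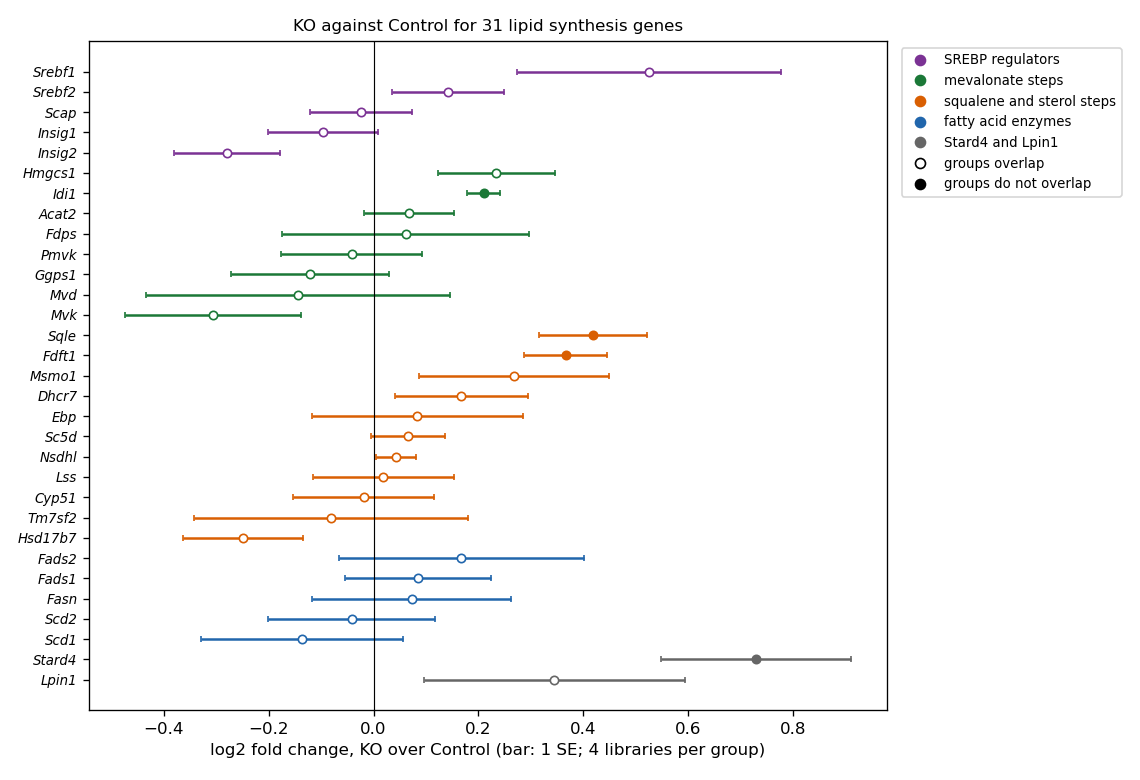
Log2 fold change of KO over Control (x axis) for each of the 31 genes (y axis, grouped by role and coloured), with bars of 1 SE of the difference of group means over 4 libraries each. Filled points are the 4 genes whose groups do not overlap, Stard4 (0.73), Sqle (0.42), Fdft1 (0.37) and Idi1 (0.21), and the fatty acid enzymes lie between -0.14 and 0.17.

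The levels of these genes differed far more from each other than between the groups. Levels per kilobase of annotated exon take account of gene length only. The highest in Control was Scd2, a stearoyl-CoA desaturase and the main one of brain, at 105 ± 17.4 CPM per kb (SD, n = 4). Its 4 Control libraries (86.0 to 121) lay above those of every other member. Next came the phosphomevalonate kinase Pmvk at 51.2 ± 6.51, above Insig1 at 41.7 ± 2.31 without overlap of their Control libraries. Fads1 (34.5 ± 4.70), Scd1 (30.5 ± 6.80) and Insig2 (27.0 ± 0.935) overlapped their neighbours in this order. At the low end stood Srebf1 at 1.27 ± 0.337 CPM per kb, Lss at 1.35 ± 0.231, Tm7sf2 at 1.69 ± 0.184, Stard4 at 1.92 ± 0.393 and Lpin1 at 1.97 ± 0.267, which overlapped each other in turn. Scd2 was 82.7-fold above Srebf1, and of the 30 neighbouring pairs in the order 7 did not overlap. Srebf2, the SREBP tied most closely to cholesterol enzymes, was at 10.5 ± 1.04 CPM per kb, with its 4 libraries (9.78 and higher) all above those of Srebf1 (0.961 to 1.74), the SREBP tied to fatty acid genes. The lengths are unions of all annotated exons, for example 10787 bases for Lss, so exons that are little used lower a gene's level per kb. Amplification of the RNA and reads left out for several alignments may also act unequally on genes, so the order is approximate.

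**Figure D2:**
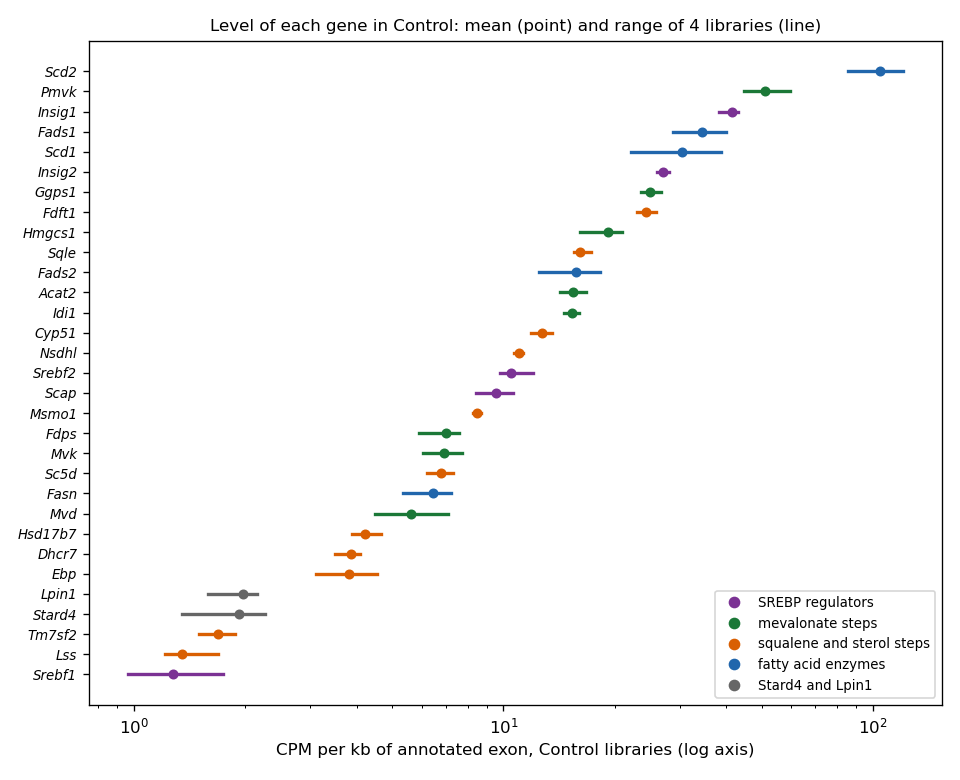
Level of each of the 31 genes in the 4 Control libraries, in CPM per kb of annotated exon (x axis, log scale), with the mean as a point and the range as a line. Scd2 (105) stands alone at the top and Srebf1 (1.27) is lowest.

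Among the regulators, Srebf1 measured 7.58, 13.3, 9.20 and 11.1 CPM in KO replicates 1 to 4 and 9.79, 6.23, 7.14 and 5.41 CPM in Control replicates 1 to 4. KO replicates 2 and 4 lay above all Control libraries, while Control replicate 1 lay above KO replicates 1 and 3, so the groups overlapped (log2FC 0.53, SE 0.25, edgeR adjusted p = 0.410). Insig2, one of the 2 proteins that retain SCAP in the endoplasmic reticulum, measured 78.0, 71.0, 92.4 and 67.8 CPM in KO and 97.7, 95.3, 91.7 and 90.6 CPM in Control. KO replicates 1, 2 and 4 lay below all 4 Control libraries and KO replicate 3 lay among them (log2FC -0.28, SE 0.10, edgeR adjusted p = 0.410). Insig1, the other retention protein and itself an SREBP target, measured 105, 139, 129.7 and 109 CPM in KO and 133, 130.0, 134 and 118 CPM in Control. KO replicates 1 and 4 were low and KO replicate 2 was the highest of all 8 (log2FC -0.10, SE 0.11, edgeR adjusted p = 0.844).

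The escort protein gene Scap ranged from 61.0 to 77.0 CPM in KO and from 62.8 to 78.6 in Control (log2FC -0.02). Srebf2 ranged from 74.9 to 97.2 and from 70.2 to 86.1 CPM (log2FC 0.14), with KO replicate 1 above all Control libraries. Of the 5 regulators 2 were positive and 3 negative, and 0 were called. Rai1 overlaps 109 exon bases of Srebf1 on the opposite strand, 1.93% of its exons. The library kit does not mark strand, so reads there cannot be told apart, and Rai1 was higher in every KO library (69.7 ± 8.72 against 51.3 ± 1.81 CPM, log2FC 0.44, edgeR adjusted p = 0.146). Its part in the Srebf1 value was not tested.

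Along the mevalonate steps the clearest separation was in Idi1, the isomerase that interconverts the building blocks of isoprenoids. It measured 62.7, 60.3, 61.3 and 63.0 CPM in KO and 53.9, 56.2, 52.5 and 51.2 CPM in Control. The groups did not overlap and the KO libraries lay close together, yet the step is small, at 1.16-fold (log2FC 0.21, SE 0.03, edgeR adjusted p = 0.514). The test borrows spread from other genes, so the narrow spread of Idi1 counts only in part. In GRCm38, Idi1 (ENSMUSG00000058258.14) spans bases 8885501 to 8892451 of chromosome 13, plus strand. Hmgcs1, the synthase that makes HMG-CoA, ranged from 94.5 to 116 CPM in KO and from 74.0 to 96.7 in Control, with 2 KO libraries above all Control libraries (log2FC 0.23, SE 0.11, edgeR adjusted p = 0.517). Its gene spans bases 119690379 to 119708260 of the same chromosome, also plus strand.

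Kinases and a decarboxylase turn mevalonate into isopentenyl diphosphate. Mvk, the first of them, measured 16.4, 11.9, 13.3 and 18.4 CPM in KO and 16.9, 20.7, 16.2 and 20.3 CPM in Control. KO replicates 2 and 3 lay below all Control libraries and the other KO libraries lay within the Control range (log2FC -0.31, SE 0.17, edgeR adjusted p = 0.549). Pmvk, the most abundant enzyme of this stretch, measured 82.4, 74.2, 81.8 and 103 CPM in KO and 82.4, 103, 76.7 and 89.4 CPM in Control, with the groups spread over nearly the same range (log2FC -0.04, SE 0.13, edgeR adjusted p = 0.945). Mvd, the decarboxylase, ranged from 5.47 to 12.7 CPM in KO and from 8.32 to 13.2 in Control (log2FC -0.14, SE 0.29).

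The remaining mevalonate genes had small fold changes. Acat2, the thiolase that makes acetoacetyl-CoA, ranged from 35.6 to 45.2 CPM in KO and from 36.1 to 42.4 in Control (log2FC 0.07). The farnesyl diphosphate synthase Fdps ranged from 18.8 to 35.4 and from 24.8 to 31.8 CPM (log2FC 0.06, SE 0.23), with KO replicate 3 below and the other 3 KO libraries above all Control libraries. Gm43738 shares 1124 exon bases with Fdps on the same strand, 26.7% of its exons, so how reads were divided between them is uncertain. Ggps1, which makes geranylgeranyl diphosphate for protein prenylation, ranged from 80.8 to 129 and from 112 to 126 CPM (log2FC -0.12). Of the 8 mevalonate genes 4 were positive and 4 negative, with a median of 0.01, and 0 were called.

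RefSeq promoter windows of 300 bases, from 250 before to 50 after the annotated start on GRCm38.p6, were found for 24 of the 31 genes. The 250 bases before the start are shown for Hmgcs1, which alone carried a sterol regulatory element of the form searched, for Idi1, whose groups did not overlap, and for Mvk, whose fold change was the lowest of the 31. The windows were searched on both strands for TCACNCCAC, a form of the sterol regulatory element, for CCAAT, the box bound by NF-Y, and for TGAATGAA and TGAATGGA, forms of the site bound by Capicua. Capitals mark the first of these motifs and the CCAAT boxes (read as ATTGG on the other strand), and matches may overlap.
Hmgcs1, chr13:119690101-119690350, plus strand: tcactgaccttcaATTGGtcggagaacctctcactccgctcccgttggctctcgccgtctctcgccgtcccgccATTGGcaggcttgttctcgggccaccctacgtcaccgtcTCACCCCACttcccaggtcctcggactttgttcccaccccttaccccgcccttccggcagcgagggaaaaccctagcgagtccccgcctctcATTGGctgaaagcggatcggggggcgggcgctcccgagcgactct
Idi1, chr13:8885356-8885605, plus strand: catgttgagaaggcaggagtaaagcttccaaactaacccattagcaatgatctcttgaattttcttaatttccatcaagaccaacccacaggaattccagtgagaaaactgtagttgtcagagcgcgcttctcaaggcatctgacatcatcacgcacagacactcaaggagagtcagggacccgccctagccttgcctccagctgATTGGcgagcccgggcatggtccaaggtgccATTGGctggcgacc
Mvk, chr5:114444019-114444268, plus strand: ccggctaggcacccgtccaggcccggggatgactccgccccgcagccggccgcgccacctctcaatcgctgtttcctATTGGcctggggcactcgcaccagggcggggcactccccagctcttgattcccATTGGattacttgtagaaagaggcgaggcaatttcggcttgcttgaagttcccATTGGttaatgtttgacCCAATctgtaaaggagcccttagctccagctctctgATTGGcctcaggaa

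TCACNCCAC occurred in 1 of 32 windows of the 24 genes, that of Hmgcs1, where it starts at -137 relative to the start site, and in 1.24% of 32851 RefSeq windows of the same length. CCAAT occurred in 21 of the 32 windows, which belong to 20 of the 24 genes, and in 37.4% of all windows. Idi1 has it at -45 and -14, Hmgcs1 at -237, -176, -45 and, beyond the letters shown, 10, and Mvk at -173, -120, -67, -50 and -14. The 2 Capicua motifs occurred in 0 of the 32 windows and in 2.47% of all windows. Sqle, Fdft1, Stard4, Fdps, Scd1, Scd2 and Fads1 had no entry in the table. A match is a description of letters and says nothing of binding in these cells.

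Squalene and sterol steps, 11 of the 31 genes, held 2 of the 4 genes whose groups did not overlap. Of all tested genes 3.01% had every KO library above Control. Fdft1, squalene synthase, commits farnesyl diphosphate to sterols. It measured 129, 148, 117 and 137 CPM in KO and 97.2, 100.4, 109.6 and 104 CPM in Control, so that the groups did not overlap and KO replicate 3 came nearest to Control (1.29-fold, log2FC 0.37, SE 0.08, edgeR adjusted p = 0.219). Sqle, squalene epoxidase, a rate-limiting oxygen-dependent step, measured 101, 124, 139 and 113 CPM in KO and 87.0, 88.5, 95.7 and 86.2 CPM in Control. All 4 KO libraries were above all 4 Control libraries, with KO replicate 3 the highest (1.34-fold, log2FC 0.42, SE 0.10, edgeR adjusted p = 0.181). With DESeq2 in place of edgeR, Sqle passed at an adjusted p of 0.0475, where 1.53% of 13040 genes with an adjusted p were called, and its adjusted p ranged from 0.0475 to 0.512 over 17 alternatives. That of Fdft1 ranged from 0.0657 to 0.613 and passed in 0 of 17.

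Sqle (ENSMUSG00000022351.14) spans bases 59315077 to 59331192 of chromosome 15, plus strand, and Fdft1 (ENSMUSG00000021273.10) bases 63145150 to 63179578 of chromosome 14, minus strand. The exons of Fdft1 share 774 bases, 18.3% of their length, with Ctsb on the opposite strand. Reads there cannot be told apart, and Ctsb, which encodes cathepsin B, was lower in KO on average (414 ± 51.3 against 459 ± 35.1 CPM, log2FC -0.15, edgeR adjusted p = 0.727). Its part in the Fdft1 value was not tested. Arid4b and Akap9 overlap 5.44% of the exons of Ggps1 and 3.76% of those of Cyp51, also on the opposite strand.

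The steps from squalene epoxide to cholesterol had smaller fold changes than Sqle and Fdft1, and the groups overlapped in all 9 of their genes. Lss, the cyclase that makes lanosterol, ranged from 13.4 to 16.1 CPM in KO and from 13.0 to 18.3 in Control (log2FC 0.02, SE 0.13). Cyp51, the lanosterol demethylase, ranged from 42.5 to 62.0 and from 52.7 to 59.7 CPM (log2FC -0.02, SE 0.13). Msmo1, the oxidase of the methyl groups, ranged from 48.3 to 86.2 CPM in KO against 50.7 to 53.4 CPM in Control, with KO replicate 4 highest, replicates 1 and 2 also above all Control libraries, and replicate 3 below them (log2FC 0.27, SE 0.18, edgeR adjusted p = 0.555).

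Nsdhl and Hsd17b7 complete the demethylation with Msmo1. Nsdhl varied little, from 30.7 to 33.9 CPM in KO and 30.4 to 32.3 in Control (log2FC 0.04, SE 0.04). Hsd17b7 ranged from 15.5 to 21.1 and from 19.9 to 23.8 CPM, with 3 of the KO libraries below all Control libraries (log2FC -0.25, SE 0.11, edgeR adjusted p = 0.589). Tm7sf2, a sterol reductase, had 7.02 ± 2.15 CPM in KO and 7.42 ± 0.810 in Control, and the isomerase gene Ebp 9.33 ± 1.84 and 8.81 ± 1.66 (n = 4 each). Vps51 shares 532 exon bases with Tm7sf2 on the same strand, 12.1% of its exons. The sterol desaturase gene Sc5d ranged from 31.9 to 36.3 and from 30.2 to 35.4 CPM. Dhcr7, the reductase that can give cholesterol in the last step, was at 25.3 ± 4.33 and 22.5 ± 1.49 CPM, with KO replicate 4 highest at 31.5 CPM (log2FC 0.17). Of the 11 squalene and sterol genes 8 were positive and 3 negative, with a median of 0.07, and 0 were called. Dhcr7 is the only one of the 31 on the chromosome of Cic, 118528986 bases from it.

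**Figure D3:**
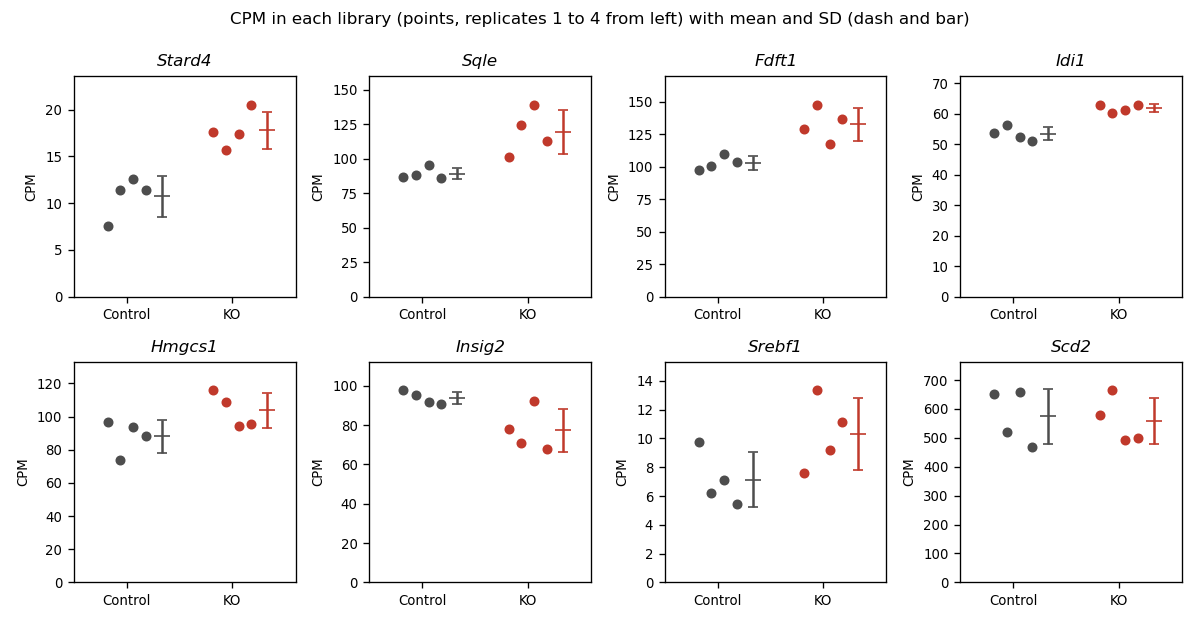
CPM (y axis, from 0) in each library for 8 of the genes, with Control in grey and KO in red, replicates 1 to 4 from left to right in each group, and the mean with its SD beside them. Points of the 2 groups do not overlap in the upper row and overlap for Hmgcs1, Insig2, Srebf1 and Scd2 in the lower row.

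Added together, the 19 enzymes from Acat2 to Dhcr7 came to 968, 984, 931 and 984 CPM in KO replicates 1 to 4 and to 864, 888, 901 and 882 CPM in Control replicates 1 to 4. The KO libraries lay above the Control libraries, by 9.32% on average (966 ± 24.98 against 884 ± 15.5 CPM, n = 4 each). Because of how the list was drawn up, the sum has no test. To the difference of 82.4 CPM, Sqle added 30.1, Fdft1 29.7, Hmgcs1 15.5, Msmo1 10.7 and Idi1 8.37 CPM, while Ggps1 gave -9.52, Mvk -3.53 and Hsd17b7 -3.43 CPM. The fold changes of the 19 were positive in 12 and negative in 7, with a median of 0.06.

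**Figure D4:**
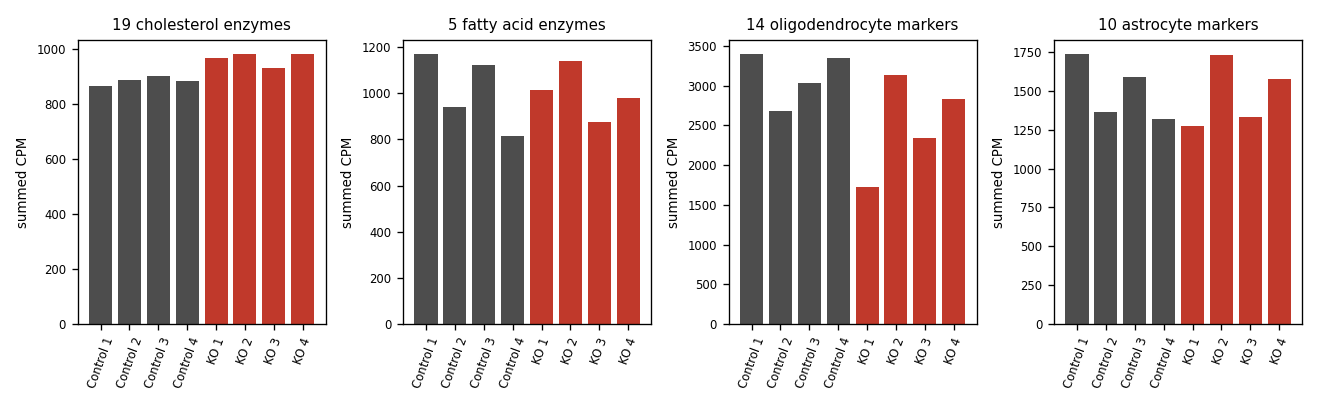
Summed CPM (y axis, from 0) in each of the 8 libraries for the 19 cholesterol enzymes, the 5 fatty acid enzymes, 14 oligodendrocyte markers and 10 astrocyte markers, with Control in grey and KO in red. The cholesterol enzymes are higher in the 4 KO libraries (931 to 984 CPM) than in the 4 Control libraries (864 to 901 CPM), and KO replicate 1 has the lowest oligodendrocyte sum (1720 CPM).

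Fatty acid enzymes varied among the libraries of each group, and no group separated from the other. Scd2 measured 578, 664, 492 and 501 CPM in KO and 652, 519, 659 and 470.1 CPM in Control. High and low libraries occurred in both groups, with KO replicate 2 and Control replicates 1 and 3 high (log2FC -0.04, SE 0.16, edgeR adjusted p = 0.947). Its relative Scd1 ranged from 119 to 164 CPM in KO and from 109 to 190 in Control (log2FC -0.14, SE 0.19). Fads2, the desaturase that starts the making of polyunsaturated fatty acids, measured 45.5, 67.3, 43.5 and 75.7 CPM in KO and 60.5, 48.8, 55.9 and 41.3 CPM in Control. KO replicates 2 and 4 were highest and the other KO libraries lay within the Control range (log2FC 0.17, SE 0.23, edgeR adjusted p = 0.797).

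Fads1, the desaturase of a later step, ranged from 159 to 212 CPM in KO and from 138 to 193 in Control (log2FC 0.08, SE 0.14). Fasn, fatty acid synthase, ranged from 60.7 to 101 and from 58.3 to 78.7 CPM, with KO replicate 1 above all other libraries (log2FC 0.07, SE 0.19). Of the 5 genes 3 were positive and 2 negative and 0 were called. Their sum was 1003 ± 109 CPM in KO and 1013 ± 164 CPM in Control.

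Stard4, a soluble protein that carries cholesterol between membranes, had the largest difference of the 31. It measured 17.6, 15.7, 17.3 and 20.5 CPM in KO and 7.56, 11.4, 12.6 and 11.4 CPM in Control. No KO library fell into the Control range, and Control replicate 1 was the lowest (1.66-fold, log2FC 0.73, SE 0.18, edgeR adjusted p = 0.101). Ordered by p it stood at place 85 of the 15438 genes, and its exact permutation p was 0.0286. Stard4 passed with DESeq2 (adjusted p = 0.0140) and in no other alternative, with a range of 0.0140 to 0.421 over 17. Without Control replicate 1 its log2FC was 0.59 (edgeR adjusted p = 0.421). Lpin1, a phosphatidate phosphatase of glycerolipid synthesis, ranged from 16.2 to 34.2 CPM in KO and from 15.3 to 20.8 in Control. KO replicates 1, 2 and 4 lay above all Control libraries and KO replicate 3 was low (log2FC 0.34, SE 0.25, edgeR adjusted p = 0.554). Stard4 (ENSMUSG00000024378.9) spans 5586 exon bases and shares none with another coding gene.

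The coefficient of variation between libraries was higher in KO for 23 of 31 genes, near the 71.4% of all tested genes for which it was. Its median was 14.3% in KO and 10.8% in Control, against 19.7% and 13.2% over all tested genes. Msmo1 had 26.4% in KO and 2.57% in Control, and Insig2 14.1% and 3.46%, whereas Stard4 had 11.3% and 20.4% and Idi1 2.04% and 3.97%. KO replicate 4 held the highest of the 8 values for 9 genes and KO replicate 2 for 8, and Control replicate 4 held the lowest for 9. KO replicate 3 was the lowest of all 8 for 6 genes, among them Fdps, Mvd and Tm7sf2, but held the highest Sqle.

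**Figure D5:**
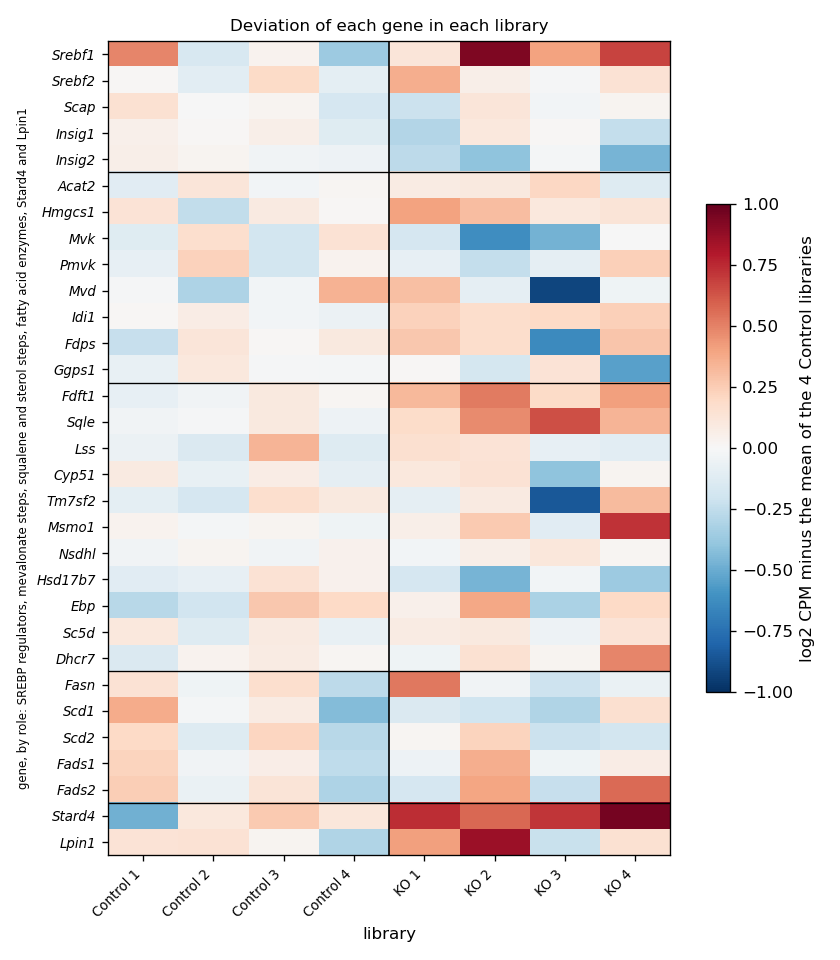
Deviation of each gene (rows, grouped by role) in each library (columns) from the mean of the 4 Control libraries, as log2 CPM on a colour scale from -1 to 1. The rows of Stard4, Sqle, Fdft1 and Idi1 are red in all 4 KO libraries, whereas the fatty acid enzymes are red and blue in both groups.

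Of 18 further genes of SREBP processing and lipid synthesis, 17 were tested and 0 were called, with 13 positive, 4 negative and a median of 0.10. At an unadjusted p of 0.05, 3 were higher in KO and 2 lower, where 6.06% and 4.53% of all tested genes were. Acly, which supplies cytosolic acetyl-CoA, measured 102, 111, 92.4 and 75.3 CPM in KO and 78.2, 57.1, 73.6 and 72.5 CPM in Control (log2FC 0.44, SE 0.16, edgeR adjusted p = 0.221), with KO replicate 4 inside the Control range. Acaca, acetyl-CoA carboxylase, was at 48.8 ± 7.69 and 42.1 ± 8.12 CPM (log2FC 0.21). Elovl6, an elongase named after its values were seen, was the only 1 of the 17 whose KO libraries (141 to 161 CPM) all lay above Control (111 to 135 CPM, log2FC 0.34, edgeR adjusted p = 0.260), where 3.01% of all tested genes did so. The genes that were lower at that p, also named after their values were seen, were Mbtps1 and Pnpla3. Mbtps1, the site 1 protease that cuts SREBPs, measured 48.5, 61.6, 48.8 and 41.2 CPM in KO and 68.8, 74.0, 68.0 and 53.9 CPM in Control. KO replicate 2 lay inside the Control range and the other KO libraries below it (log2FC -0.40, SE 0.16, edgeR adjusted p = 0.283). Pnpla3, a lipid droplet protein, was low throughout, at 0.877 ± 0.592 and 1.92 ± 0.410 CPM (log2FC -1.12, edgeR adjusted p = 0.438), the largest difference of the 17.

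Of 16 genes of sterol traffic and disposal 12 were negative and 4 positive, with a median of -0.13, and 0 were called. Cyp46a1, the neuronal enzyme that hydroxylates cholesterol for export from brain, measured 52.2, 48.0, 51.2 and 61.8 CPM in KO and 74.0, 64.4, 65.6 and 83.6 CPM in Control. Every KO library was below every Control library (0.74-fold, log2FC -0.43, SE 0.12, edgeR adjusted p = 0.186). The same held for Nr1h2, which encodes an oxysterol receptor (log2FC -0.53, edgeR adjusted p = 0.137), and Npc2, a lysosomal sterol carrier (-0.38, edgeR adjusted p = 0.258), both named after their values were seen. These are 3 of 16 genes, against 2.91% of all tested genes. Apoe, the glial lipoprotein gene, was at 148 ± 55.6 CPM in KO and 179 ± 34.5 in Control (log2FC -0.28), and the sterol exporter gene Abca1 at 8.73 ± 4.98 and 10.7 ± 4.61 CPM (log2FC -0.29). Lipa, the lysosomal lipase that frees cholesterol from its esters and named after its values were seen, was at 45.4 ± 8.17 and 36.3 ± 4.13 CPM (log2FC 0.32, edgeR adjusted p = 0.426). Whether the synthesis and disposal lists differ from each other was not tested.

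Oligodendrocyte markers were lower in KO on average. All 14 had a negative fold change (median -0.34). Over all genes tested 2 fell (Cldn11 at -0.81 and Gjb1 at -1.09, edgeR adjusted p = 0.0375 and 0.0489), where 10 of 15438 genes did. Every KO library lay below Control for 5 of the 14, against 2.91% of all tested genes. Of 10 astrocyte markers 4 were positive and 6 negative (median -0.06, 0 called), and of 10 microglia markers, each at 6.34 CPM or less on average in both groups, 9 were negative (median -0.50, 0 called). Of 9 precursor markers 8 were negative (median -0.26, 0 called), and of 8 ependymal and tanycyte markers 7 (median -0.38, 0 called). All 6 markers of the Otp lineage were positive (median 0.45, 0 called). For 1 of them, Nhlh2, every KO library lay above Control, where 3.01% of all tested genes did so. The same held for 1 of 10 neuron markers. Every KO library lay below Control for 1 astrocyte, 1 precursor, 1 ependymal and tanycyte, and 1 of 10 endothelial and mural markers, and for 0 microglia markers. With the mean level of the oligodendrocyte, precursor, astrocyte and microglia markers as a covariate, the log2FC values were 0.62 for Stard4, 0.39 for Sqle, 0.41 for Fdft1 and 0.19 for Idi1, with edgeR adjusted p of 0.339, 0.394, 0.329 and 0.694. Srebf1 was at 0.78 and Insig2 at -0.37 in that fit, and the median of the 31 at 0.09. The covariate weighs all 43 markers equally, the microglia markers at low levels included, so the fit does not adjust for oligodendrocyte RNA alone. The part of oligodendrocyte RNA alone, and that of the Otp-lineage and ependymal markers, in the results was not tested.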

How the data were processed

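The authors deposited 1 table of raw read counts per gene for each of the 8 libraries (4 KO, 4 Control). Per the labels' protocols, ribosome-bound RNA was amplified (NuGEN Ovation) before library making, which does not mark strand. TopHat2 2.0.9, HTSeq, DESeq2 and mm10 are named in the submitters' processing notes. The gene annotation, strand setting and versions of the other tools were not given in the sources used here. HTSeq leaves out reads with several alignments, which lowers counts of genes with close copies. Each table held 24421 gene rows, 92 spike-in rows and 5 counter rows, and both latter kinds were left out before scaling.

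Counts were filtered with filterByExpr (minimum count 10, minimum total 15), scaled by TMM and tested with edgeR 4.0.16 (quasi-likelihood, robust, R 4.3.3) on the KO and Control libraries, with Benjamini-Hochberg adjustment over 15438 genes and a threshold of 0.05. CPM are counts scaled to library size after TMM. The SE is that of the difference of group means of log2 CPM (prior count 2). Permutation tests were exact and 2-sided. Exon lengths came from GENCODE on GRCm38, the assembly named mm10, and promoter windows from RefSeq GRCm38.p6. The scripts were tested on simulated data, where 9 of 15238 unchanged genes were called. The 28 pairs of libraries all differed by more than sampling noise. The labels do not say that libraries came from separate animals, and p-values then reflect only the spread among these samples, which may be technical.

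The members and lists were chosen with earlier results of these data known. Values per library are given for members with an unadjusted p under 0.05, with groups that do not overlap, or with the highest level per kb or largest fold change of their role, and the others by their range. Alternatives were other scalings, filters, DESeq2 1.42.0, a replicate block, a glial covariate and leaving out each library. Values of some further pathway genes are not reported here.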

Additional observations from a re-analysis of the deposited data

Results flagged for a closer look

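Within groups of 4, 2 of 62 gene and group combinations had a library whose gap to the nearest other, divided by the range of the group, passed Dixon's critical value, and chance passes about 1 in 20. Fdps measured 18.8 CPM in KO replicate 3, the lowest of its group, where the other 3 lay from 33.01 to 35.4 CPM (gap over range 0.854). Lss measured 18.3 CPM in Control replicate 3, the highest of its group, where the other 3 lay from 13.0 to 13.8 CPM (0.848).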

How the results depend on the processing

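No gene of the 31 passed in edgeR under 16 alternatives, whereas DESeq2 called 2, Sqle and Stard4, both higher in KO. DESeq2 called 1.53% of the 13040 genes to which it gave an adjusted p. Over 17 alternatives the median log2 fold change of the 31 lay between 0.012 and 0.106. Cic passed in 17 of 17. Over all genes, 40 were called (30 higher, 10 lower). DESeq2 called 200 (119 higher, 81 lower), including all 40. Library totals alone gave 26 (5 lower) and the glial covariate 15 (11 higher, 4 lower). The replicate block gave 65 (22 lower). Its numbers are not known to pair libraries: deviations of same-numbered libraries correlated at -0.048, -0.0483, -0.00137 and 0.103, and 1 of 4 KO libraries correlated best with its own number. Leaving out 1 library at a time gave 14 to 53 (12 to 36 higher, 2 to 17 lower). Dropping Control replicates 1, 2, 3 and 4 in turn gave 19, 17, 26 and 14, and dropping KO replicate 2 or 4 gave 26 or 53. Fold changes near 0 changed sign, none of them called. With the glial covariate these were Scap 0.0442, Acat2 -0.0228, Mvd 0.0219, Lss -0.0247, Cyp51 0.0609, Tm7sf2 0.0944, Fasn -0.0203 and Scd2 0.0141, and with upper-quartile scaling Lss -0.00845. Without 1 library the fold changes ran from -0.0845 to 0.0298 (Scap), -0.0234 to 0.236 (Fdps), -0.0368 to 0.145 (Lss), -0.121 to 0.158 (Fasn), -0.151 to 0.0395 (Pmvk), -0.035 to 0.2 (Ebp), -0.0258 to 0.164 (Fads1), -0.329 to 0.0472 (Mvd), -0.0862 to 0.0896 (Cyp51), -0.241 to 0.106 (Tm7sf2), and -0.145 to 0.0301 (Scd2). The causes were not tested. With 4 libraries a group, most changes under 1.5-fold were below what the test recovers in simulated counts.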

Other observations

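The summed level of the 5 fatty acid enzymes was compared with the summed level of 7 marker lists across the 8 libraries. It went with the 10 astrocyte markers at Pearson's r 0.825 (permutation p = 0.0207, adjusted over 7 relations 0.145) and Spearman's rho 0.762 (permutation p = 0.0368, adjusted 0.258). Without Control replicate 1 and KO replicate 2, the libraries farthest from the median of the astrocyte sum, r was 0.614. Both sums share the libraries and their scaling, and Scd2 made up most of the fatty acid sum (575 of 1013 CPM in Control on average). The other 6 lists had r between -0.578 (neuron markers, exact permutation p = 0.135) and 0.356 (endothelial and mural markers, exact permutation p = 0.394). Both changed sign without the 2 libraries farthest from the median of the marker sum. The neuron r was then 0.293 (without KO replicate 3 and Control replicate 4) and the endothelial and mural r -0.0236 (without Control replicate 1 and KO replicate 1). For the 14 oligodendrocyte markers r was 0.246 (exact permutation p = 0.566).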
